A study of Homo sapiens with 12 samples.

Results

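Interferon-stimulated genes are described here in WI-38 cells, an established line of diploid fibroblasts from human lung. The set holds 46 genes that type I or type II interferons are known to induce, chosen by name from a fixed list and not by their values, and all 46 were found among the 57773 genes counted. Bulk RNA-seq was available for 12 libraries in 4 groups of 3. In the proliferating group, cells transfected with a non-targeting siRNA pool (siCtrl) were grown for 8 days in medium with the vehicle DMSO. In the other groups cells were exposed for 8 days to 50 µM etoposide, a topoisomerase II poison that breaks DNA and drives these cells into senescence, after transfection with siCtrl, with a pool directed at NTRK2 mRNA (siNTRK2) or with a pool directed at BDNF mRNA (siBDNF). NTRK2 encodes TrkB, the receptor of the growth factor BDNF, and each pool was used at 25 nM. All libraries came from the same cell line, all cells went through transfection, and proliferating cells with siNTRK2 or siBDNF were not analysed here, so neither is an effect of either siRNA apart from senescence. The labels do not tie the 3 libraries of a group to separate cultures. The methods of the study state in general that work in cultured cells was repeated in independent experiments, each with all groups, so p-values measure the spread between these libraries, whose source is not given library by library.

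Interferons are secreted proteins that warn neighbouring cells of infection. Type I interferons bind the receptor made of IFNAR1 and IFNAR2, whose kinases JAK1 and TYK2 phosphorylate STAT2; with IRF9 it takes part in a complex that binds the interferon-stimulated response element (ISRE) in promoters. Type II interferon acts through a different promoter element, GAS. The products include proteins that bind or degrade foreign RNA, proteins that block virus entry, the ubiquitin-like modifier ISG15 and chemokines. In senescent fibroblasts, DNA in the cytosol is known to be able to start the same programme through the sensor cGAS and the adaptor STING, usually late after the damage.

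Total counts ranged from 31567912 to 72328151 per library, and 3 counts corresponded to between 0.0427 and 0.0916 normalised CPM, the counts scaled to library size. The labels were first checked against the targeted genes. NTRK2 had no counts in the siNTRK2 libraries and 0.125, 0.258 and 0.173 CPM in the siCtrl senescent libraries, at least 3.37-fold lower against a floor of 3 counts per library. BDNF mRNA was at 48.1, 48.9 and 44.3 CPM with siBDNF and 161, 157 and 169 CPM with siCtrl in senescent cells (log2 fold change -1.79 ± 0.05, adjusted p = 1.72e-18). All 8 fibroblast markers were detected in every group, with summed levels of 31840 to 33770 CPM in proliferating cells and 23050 to 29960 CPM in the senescent groups. Markers of other cell types were low: 4 leukocyte markers (PTPRC, CD3E, CD14 and LYZ) summed to between 0.157 and 0.215 CPM in proliferating cells, where 3 of the 4 were at 0, and to between 1.25 and 2.19 CPM in the 3 senescent groups. The endothelial gene VWF was at 0.379 to 1.13 CPM in proliferating, 1.69 to 2.11 CPM in siCtrl senescent, 1.33 to 1.68 CPM in siNTRK2 and 1.76 to 2.35 CPM in siBDNF cells. The 4 proliferation markers (MKI67, TOP2A, CCNB1 and CDK1) summed to 198.9 to 214.8 CPM in proliferating cells, 25.4 to 27.7 CPM in siCtrl senescent cells, 48.4 to 51.0 CPM with siNTRK2 and 27.2 to 29.4 CPM with siBDNF. The part of these markers in the results below was not tested.

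The promoters of the members were searched for the ISRE and GAS elements. RefSeq promoter windows (GRCh38.p14, 250 bases before to 50 bases after a transcription start) were found for 37 of the 46 members. The ISRE core, searched on both strands as GAAA followed by any 2 bases and a second GAAA, was present in a window of 26 of these 37 genes (70.3%), against 1195 of 27305 genes with a window (4.38%). The GAS core, TTCNNNGAA, which reads the same on both strands, was present in 12 of the 37 (32.4%) and in 2560 of the 27305 (9.38%). The motifs were searched separately, so 1 base could belong to both, and a match describes the letters only. The windows of 6 members whose values are central below are shown 5′ to 3′ on the strand of the gene, with bases of an ISRE match in capitals.
IFIT1 (chr10:89392373-89392672, + strand): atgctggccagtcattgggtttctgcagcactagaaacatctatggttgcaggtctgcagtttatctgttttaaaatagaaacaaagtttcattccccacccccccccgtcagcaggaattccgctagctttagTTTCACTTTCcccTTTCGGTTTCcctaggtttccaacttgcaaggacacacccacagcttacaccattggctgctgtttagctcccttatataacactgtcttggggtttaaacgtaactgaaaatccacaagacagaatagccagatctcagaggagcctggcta
ISG15 (chr1:1013247-1013546, + strand): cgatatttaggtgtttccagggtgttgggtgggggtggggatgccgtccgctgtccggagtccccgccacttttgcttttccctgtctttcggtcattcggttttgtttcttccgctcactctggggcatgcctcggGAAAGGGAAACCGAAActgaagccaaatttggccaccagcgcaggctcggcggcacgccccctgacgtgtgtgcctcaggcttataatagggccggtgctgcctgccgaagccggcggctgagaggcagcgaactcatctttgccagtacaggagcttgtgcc
IFI6 (chr1:27672143-27672442, - strand): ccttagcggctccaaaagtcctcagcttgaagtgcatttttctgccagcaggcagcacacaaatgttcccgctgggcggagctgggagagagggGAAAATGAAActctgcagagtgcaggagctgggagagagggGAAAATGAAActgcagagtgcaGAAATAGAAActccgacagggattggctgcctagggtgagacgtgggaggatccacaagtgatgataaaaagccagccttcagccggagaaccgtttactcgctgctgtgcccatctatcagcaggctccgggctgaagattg
GBP1 (chr1:89065159-89065458, - strand): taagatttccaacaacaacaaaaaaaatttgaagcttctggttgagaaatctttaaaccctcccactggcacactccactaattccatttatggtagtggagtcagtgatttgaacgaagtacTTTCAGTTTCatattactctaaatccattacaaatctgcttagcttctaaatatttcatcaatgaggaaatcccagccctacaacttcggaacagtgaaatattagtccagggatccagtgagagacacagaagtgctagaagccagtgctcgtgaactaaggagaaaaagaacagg
IFITM3 (chr11:320811-321110, - strand): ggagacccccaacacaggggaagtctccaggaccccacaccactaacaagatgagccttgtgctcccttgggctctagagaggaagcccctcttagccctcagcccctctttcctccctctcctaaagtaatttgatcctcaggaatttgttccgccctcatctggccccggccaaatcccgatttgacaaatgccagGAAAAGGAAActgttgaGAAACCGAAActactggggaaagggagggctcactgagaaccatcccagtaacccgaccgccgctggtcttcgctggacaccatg
SAMD9 (chr7:93117930-93118229, - strand): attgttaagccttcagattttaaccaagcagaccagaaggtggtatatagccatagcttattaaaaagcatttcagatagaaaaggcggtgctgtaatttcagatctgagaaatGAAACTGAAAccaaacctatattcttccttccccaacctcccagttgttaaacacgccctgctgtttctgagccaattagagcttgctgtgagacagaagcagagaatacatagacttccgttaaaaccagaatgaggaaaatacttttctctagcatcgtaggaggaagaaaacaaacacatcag
IFIT1 is the textbook member, with matches that began 116 and 103 bases before the start. ISG15 held a pair of overlapping matches (113 and 107 bases before the start), IFI6 held 3 (156, 115 and 93), and IFITM3 had matches closer to the start (52 and 35). GBP1 and SAMD9 each held 1 match, at 127 and 136 bases before the start. Both genes rose with siNTRK2, where IFIT1 fell, while GBP1 fell as IFIT1 did in senescence and with siBDNF. A link between the number of matches and these directions was not tested.

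Levels per kilobase of exon spread widely among the members. In siCtrl senescent cells the highest were the membrane restriction factor IFITM3 (57.9 CPM per kb), ISG15 (34.8), IFITM2 (31.6), IFI6 (28.7), the ISG15-conjugating enzyme UBE2L6 (16.3) and the transcription factor STAT2 (9.28). The classical antiviral genes were lower: IFIT5 stood at 4.59, IFIT3 at 2.26, IFIT1 at 1.41, MX1 at 0.164, OAS3 at 0.108 and OAS1 at 0.0309 CPM per kb. The length used was the union of all annotated exons. It was 17984 bases for MX1 and 18045 for OAS3, whose longest transcripts have 5778 and 9696 bases. For ISG15 these lengths were 867 and 787 bases, so this measure lowers some genes more than others. Of the 46 members, 12 averaged under 1 CPM over the 12 libraries (not per length). Of these, CMPK2, a mitochondrial nucleotide kinase, did not pass the count filter: it had between 4 and 11 counts in the proliferating, 5 and 8 in the siCtrl senescent, 0 and 1 in the siNTRK2 and 2 and 5 in the siBDNF libraries. The other 45 members were tested. In bulk RNA, fewer cells of a type and less RNA per cell cannot be told apart, and this holds for every level below.

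**Figure D1:**
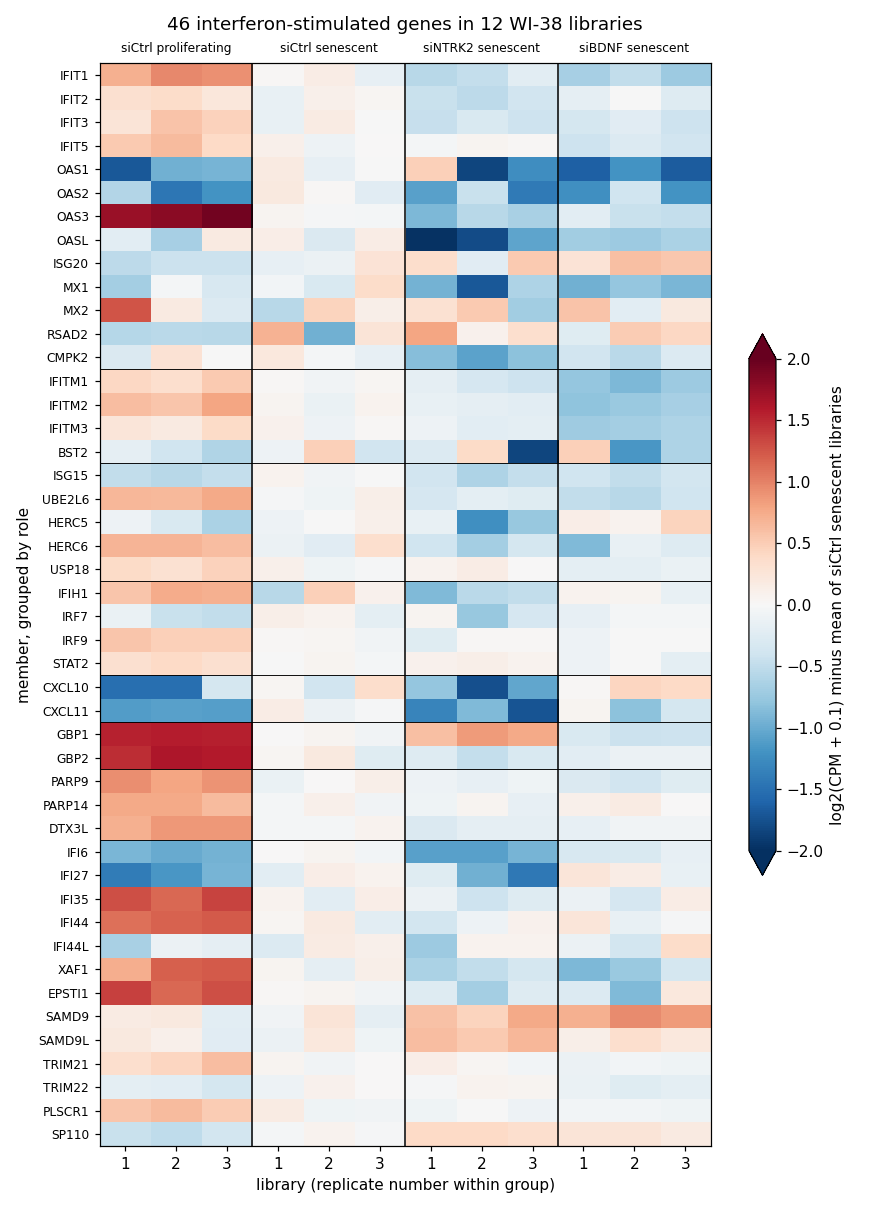
Heat map of the 46 members (rows, grouped by role) in the 12 libraries (columns, replicates 1 to 3 of each group), coloured by log2(CPM + 0.1) minus the mean of the 3 siCtrl senescent libraries of the same gene (colour scale from -2 to 2). GBP1, GBP2 and OAS3 are red in the proliferating libraries, IFI6 is blue in the proliferating and siNTRK2 libraries, and the IFITM rows are darkest blue with siBDNF.

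The first comparison asked how etoposide-induced senescence changed the members in siCtrl cells. Most of them were lower, not higher, in senescent cells: 25 of 45 fell, 9 rose and 11 did not pass the test, at an adjusted p under 0.05. Of all 21518 genes tested, 58.1% were called in this comparison, 29.8% higher and 28.3% lower, so the share of members called (75.6%) has to be read against a large background, while 55.6% of the members were lower. The median log2 fold change of the members was -0.38, beside 0.02 for all genes. With an absolute log2 fold change over 1 as a further condition, 12 members were called, 5 higher and 7 lower (16.7% of all genes). Values with ± in the following are log2 fold changes and their standard errors, with p-values of edgeR's quasi-likelihood test adjusted over the 21518 genes, and levels are in normalised CPM in the 3 libraries of a group. By level, 24 of 34 members at 1 CPM or over fell (70.6%) and 5 rose (14.7%), and of 11 tested members below 1 CPM, 4 rose (36.4%, against 29.8% of all genes), 1 fell and 6 were not called; the difference between these classes was not tested.

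The largest falls were in guanylate-binding proteins and OAS3. GBP1 (chr1:89517565-89531043, GRCh37), a GTPase that coats intracellular pathogens, was at 68.1, 69.4 and 69.2 CPM in the 3 proliferating libraries and at 23.6, 24.3 and 22.3 CPM in the siCtrl senescent ones. The groups were far apart, with a log2 fold change of -1.56 ± 0.06, adjusted p = 1.25e-16. GBP2, its relative, went from 13.01, 14.4 and 14.04 CPM to 4.77, 5.31 and 3.90 CPM (-1.57 ± 0.11, adjusted p = 4.49e-12). OAS3, one of the synthetases whose product activates RNase L, fell from 6.67, 7.05 and 7.68 CPM to 2.03, 1.91 and 1.90 CPM (-1.87 ± 0.14, adjusted p = 1.93e-11). EPSTI1 (3.55, 3.03 and 3.36 against 1.34, 1.36 and 1.25 CPM) had a log2 fold change of -1.33 ± 0.22, adjusted p = 1.25e-05. IFI35 (11.4, 10.3 and 11.9 against 4.85, 3.98 and 5.04 CPM) had one of -1.27 ± 0.12, adjusted p = 2.85e-09. IFI44 and XAF1, which encodes an antagonist of the caspase inhibitor XIAP, were also more than 2-fold lower, with log2 fold changes of -1.20 ± 0.17 and -1.14 ± 0.24.

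The antiviral RNA-binding IFIT proteins and their regulators fell by smaller amounts. IFIT1 (chr10:91152303-91166244), which holds back translation of foreign RNA, was at 10.7, 12.7 and 12.3 CPM in proliferating and 6.59, 7.17 and 5.75 CPM in senescent cells (-0.87 ± 0.11, adjusted p = 2.38e-07). Its partners IFIT2 and IFIT3 and the related IFIT5 had log2 fold changes of -0.31 ± 0.10, -0.43 ± 0.09 and -0.53 ± 0.07. Exons of IFIT2 and IFIT3 overlap LIPA on the opposite strand, which had 30994 counts in all libraries together. Whether the counting used the strand is not given in the sources used here. VIM-AS1 and THY1-AS1, which overlap exons of the abundant VIM and THY1 on the opposite strand, had 1104363 and 115721 counts in all libraries together. Whether those counts came from VIM and THY1 reads was not tested. PARP9 (-0.88 ± 0.08) and its partner DTX3L (-0.82 ± 0.07), which form a ubiquitin ligase complex, fell together with the ADP-ribosyltransferase PARP14 (-0.72 ± 0.07). PARP9 and DTX3L overlap in exons on opposite strands, so their counts are not independent if the counting ignored the strand.

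Subunits of the ISRE-binding complex were lower in senescent cells as well. IRF9 was at 29.9, 28.4 and 28.4 CPM in proliferating and 20.7, 20.9 and 19.4 CPM in senescent cells (-0.51 ± 0.07, adjusted p = 1.14e-06). Of the 100-base stretches of the longest IRF9 transcript, 15.7% also occur in a read-through gene on the same strand, so the split of its reads is uncertain. STAT2 fell from 108, 113 and 108 to 85.7, 89.7 and 83.8 CPM (-0.35 ± 0.05, adjusted p = 1.8e-06). IRF7, the factor that amplifies type I interferon transcription, was at 4.001, 3.21 and 3.11 CPM and at 4.79, 4.65 and 3.83 CPM (0.36 ± 0.16, adjusted p = 0.0607). The groups overlapped and the gene was not called, but the adjusted p was between 0.0303 and 0.0484 with DESeq2 size factors, library totals, a minimum of 10 counts in every library, a fit of only these groups or a replicate block. IFIH1, the sensor MDA5, was at 1.956, 2.24 and 2.19 CPM and 0.855, 1.84 and 1.38 CPM (-0.64 ± 0.23, adjusted p = 0.0181).

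Among the abundant members, IFI6 and ISG15 were the clear exceptions. IFI6 (chr1:27992575-27998723), a small membrane protein of the endoplasmic reticulum and mitochondria, was at 14.2, 13.2 and 13.9 CPM in proliferating and 26.95, 27.8 and 25.7 CPM in senescent cells, about 1.95-fold higher (0.96 ± 0.07, adjusted p = 1.55e-11). ISG15 (chr1:936518-949920) went from 21.5, 20.5 and 21.6 CPM to 31.6, 28.9 and 30.2 CPM (0.51 ± 0.07, adjusted p = 4.68e-07). The enzymes around ISG15 did not follow it: the conjugating enzyme UBE2L6 fell from 53.6, 52.5 and 57.1 to 32.98, 31.8 and 36.4 CPM (-0.69 ± 0.06, adjusted p = 6.19e-10), and the deconjugating enzyme USP18, which also damps the interferon receptor, had a log2 fold change of -0.38 ± 0.08. HERC6 fell (-0.67 ± 0.19), while the ligase HERC5 did not pass the test (0.37 ± 0.36, adjusted p = 0.386). SP110, a nuclear body protein, and TRIM22, a ubiquitin ligase, rose by smaller amounts (0.45 ± 0.06 and 0.26 ± 0.06). Exons of SP110 overlap SP140 on the opposite strand, which had 5602 counts in all libraries together. The SP110 counts, here and in the later comparisons, are therefore uncertain if the counting ignored the strand.

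The other members that rose had low levels, under 2 CPM in each of these libraries. CXCL10, a chemokine that attracts T cells, was at 0.431, 0.427 and 1.08 CPM in proliferating and 1.44, 1.05 and 1.82 CPM in senescent cells, with overlapping groups (1.24 ± 0.33, adjusted p = 0.00216). CXCL11, which binds the same receptor, was at 0.0538, 0.0570 and 0.0541 CPM and 0.267, 0.207 and 0.225 CPM (2.03 ± 0.72, adjusted p = 0.0187). IFI27 went from 0.287, 0.356 and 0.433 to 0.784, 1.02 and 0.969 CPM (1.38 ± 0.35, adjusted p = 0.00142). OAS1 had 0.0538, 0.157 and 0.162 CPM in proliferating and 0.463, 0.345 and 0.398 CPM in senescent cells (1.69 ± 0.69, adjusted p = 0.0374), and OAS2 had 0.341, 0.142 and 0.189 and 0.659, 0.569 and 0.467 CPM (1.33 ± 0.49, adjusted p = 0.0221). The leukocyte marker PTPRC moved in the same direction in the same libraries, from 0 counts in all 3 proliferating libraries to 1.07, 0.793 and 0.969 CPM in the senescent ones (at least 15.9-fold higher), and CD14 went from 0.215, 0.157 and 0.162 to 0.570, 0.706 and 0.260 CPM. Some low-level markers of other cell types rose too. The 3 epithelial markers (EPCAM, CDH1 and KRT5) summed to 0.233 to 0.342 CPM in proliferating and 0.896 to 0.952 CPM in siCtrl senescent cells. Of these only CDH1 was called (0.0538, 0.0142 and 0.0812 against 0.570, 0.482 and 0.554 CPM, 3.54 ± 0.58, adjusted p = 1.04e-05). EPCAM was not called and its groups overlapped (adjusted p = 0.339), and KRT5 did not pass the count filter. The endothelial gene VWF was higher in senescent cells as well. The part of any of these markers in the rise of these members was not tested.

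Calls of 5 members in this comparison were lost in fits that left out a single library, which have fewer libraries to test with. That of OAS1 was lost without siCtrl proliferating replicate 1, siCtrl proliferating replicate 2, siCtrl proliferating replicate 3, siCtrl senescent replicate 1, siCtrl senescent replicate 2 or siCtrl senescent replicate 3 (log2 fold change 1.31 to 1.95, adjusted p = 0.0524 to 0.16), and likewise in DESeq2 (adjusted p = 0.0645) and with a replicate block (adjusted p = 0.0555). That of OAS2 was lost without siCtrl proliferating replicate 2, siCtrl proliferating replicate 3, siCtrl senescent replicate 1 or siCtrl senescent replicate 2 (log2 fold change 1.03 to 1.31, adjusted p = 0.0521 to 0.118). That of CXCL11 was lost without siCtrl proliferating replicate 1, siCtrl proliferating replicate 2, siCtrl proliferating replicate 3 or siCtrl senescent replicate 1 (log2 fold change 1.92 to 2.05, adjusted p = 0.0541 to 0.0667), and without a filter on low counts (adjusted p = 0.0594). That of IFIH1 was lost without siCtrl proliferating replicate 2 or siCtrl senescent replicate 1 (log2 fold change -0.61 to -0.40, adjusted p = 0.056 to 0.132). That of IFIT2 was lost without siCtrl senescent replicate 1 (log2 fold change -0.24, adjusted p = 0.0727). IRF7 gained a call without siCtrl proliferating replicate 1 or siCtrl senescent replicate 3 (log2 fold change 0.44 to 0.47, adjusted p = 0.0318 to 0.0361), and RSAD2 without siCtrl senescent replicate 2 (1.94, adjusted p = 0.0299).

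**Figure D2:**
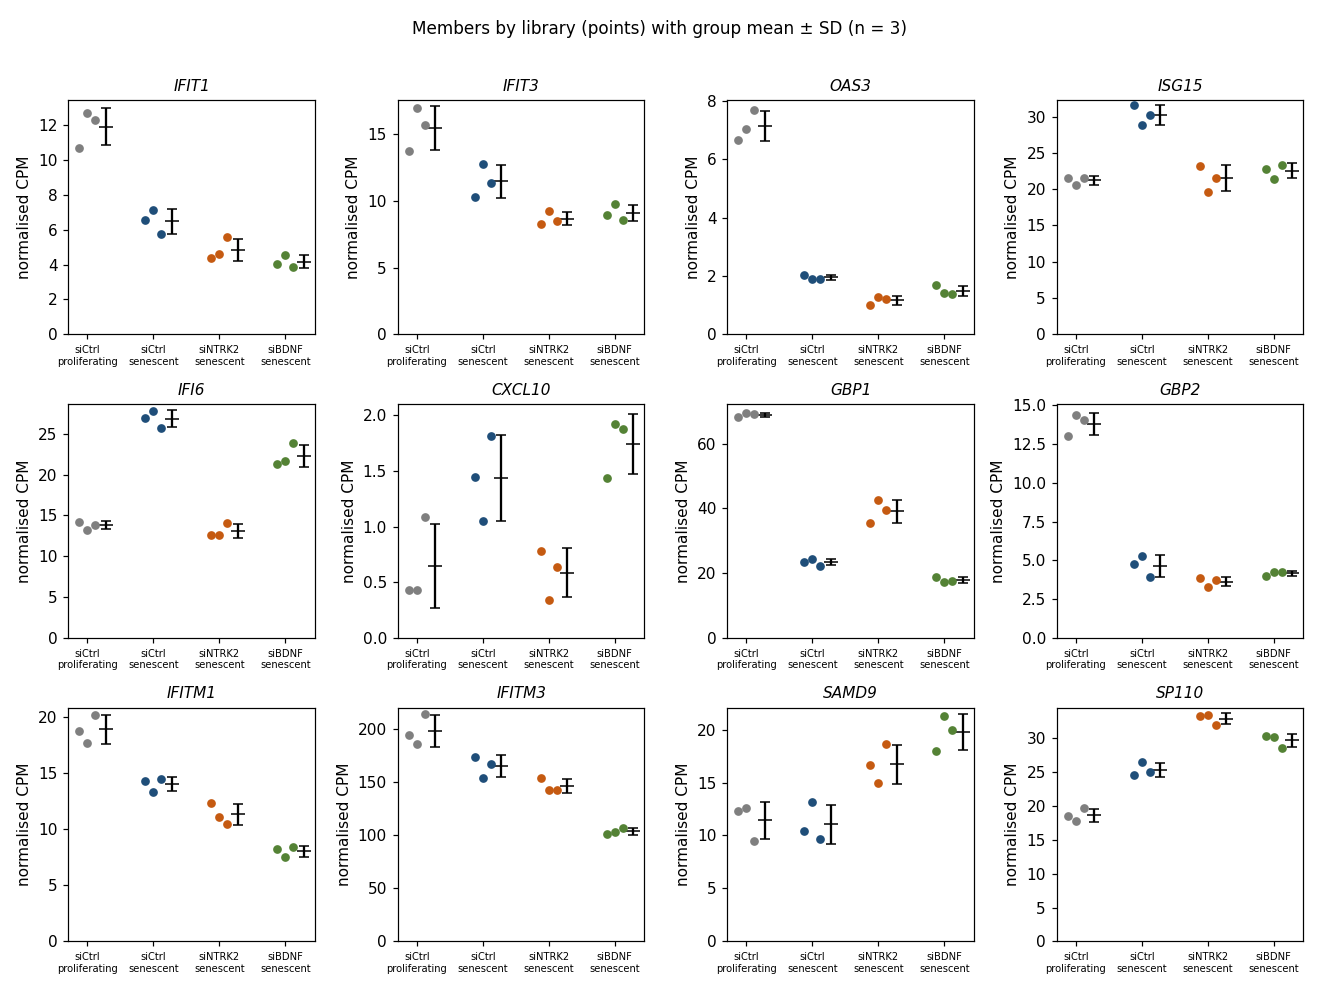
Normalised CPM (linear axis from 0) of 12 members in each library, shown as points in 4 groups, with the group mean ± SD (n = 3) as a black bar to the right of the points. GBP1 was at 68.1 to 69.4 CPM in proliferating cells and between the siCtrl senescent and proliferating levels with siNTRK2, IFI6 with siNTRK2 (12.5 to 14.1 CPM) overlapped the proliferating libraries (13.2 to 14.2 CPM), and IFITM1 and IFITM3 were lowest with siBDNF.

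The second comparison asked what changed in senescent cells when TrkB expression was targeted. With siNTRK2, 17 of 45 members fell, 4 rose and 24 did not pass the test. Of all genes 21.1% were called, 11.1% higher and 10.0% lower, whereas 46.7% of the members were called and 37.8% were lower. The median log2 fold change of the members was -0.27, and that of all genes was -0.002. With an absolute log2 fold change over 1, 5 members were called, all lower (IFI6, MX1, OASL, CXCL10 and CXCL11), against 0.957% of all genes in either direction.

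IFI6 showed the largest fall among the abundant members. Its level was 26.95, 27.8 and 25.7 CPM with siCtrl and 12.6, 12.5 and 14.1 CPM with siNTRK2 (-1.04 ± 0.07, adjusted p = 1.3e-10). The siNTRK2 range, 12.5 to 14.1 CPM, overlapped the range of the proliferating libraries, 13.2 to 14.2 CPM. Part of the IFI6 transcript (14.3% of 100-base stretches) is shared with LINC02574, which had 5 counts in all libraries together. ISG15 fell from 31.6, 28.9 and 30.2 to 23.2, 19.7 and 21.6 CPM (-0.49 ± 0.07, adjusted p = 8.35e-06), and UBE2L6 fell by less (-0.26 ± 0.06, adjusted p = 0.00363).

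The antiviral proteins moved in 1 direction among those called: 6 of 12 tested fell and none rose. MX1, a GTPase that blocks influenza viruses, was at 2.78, 2.31 and 3.76 CPM with siCtrl and 1.45, 0.826 and 1.84 CPM with siNTRK2 (-1.09 ± 0.23, adjusted p = 0.00129). OASL, an oligoadenylate synthetase relative that lacks synthetase activity, was at 0.891, 0.637 and 0.900 and 0.129, 0.161 and 0.335 CPM (-1.95 ± 0.40, adjusted p = 0.000866), or 37 to 52 counts against 8 to 18. OAS3 fell from 2.03, 1.91 and 1.90 to 1.002, 1.29 and 1.21 CPM (-0.75 ± 0.16, adjusted p = 0.00144). IFIT1 (6.59, 7.17 and 5.75 against 4.38, 4.64 and 5.57 CPM) had a log2 fold change of -0.42 ± 0.12, adjusted p = 0.0109, IFIT2 one of -0.46 ± 0.11 and IFIT3 one of -0.40 ± 0.10. IFIT5 was at 19.5, 20.7 and 20.4 CPM with siNTRK2 beside 21.5, 18.6 and 20.1 CPM with siCtrl (0.01 ± 0.07, adjusted p = 0.949, 95% interval -0.14 to 0.16).

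Both chemokines fell with siNTRK2. CXCL10 was at 1.44, 1.05 and 1.82 CPM with siCtrl and 0.776, 0.343 and 0.633 CPM with siNTRK2, without overlap (-1.28 ± 0.32, adjusted p = 0.00554). CXCL11 was at 0.267, 0.207 and 0.225 CPM and 0.0323, 0.0806 and 0 CPM (-2.60 ± 0.77, adjusted p = 0.0168), that is 12 to 15 counts against 0 to 4, so its fold change is imprecise. Over the same libraries the 4 leukocyte markers summed to 1.70 to 1.89 CPM with siCtrl and 1.25 to 1.55 CPM with siNTRK2; their part was not tested.

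Guanylate-binding protein 1, the SAMD9 pair and SP110 were the 4 members that rose with siNTRK2. GBP1 was at 23.6, 24.3 and 22.3 CPM with siCtrl and 35.4, 42.4 and 39.5 CPM with siNTRK2 (0.74 ± 0.06, adjusted p = 5.87e-09), still below the proliferating level of 68.1 to 69.4 CPM. GBP2 fell instead (4.77, 5.31 and 3.90 against 3.86, 3.31 and 3.73 CPM, -0.36 ± 0.12, adjusted p = 0.0313). SAMD9 (chr7:92728826-92747336), a restriction factor of poxviruses, rose from 10.4, 13.1 and 9.64 to 16.6, 14.96 and 18.6 CPM (0.60 ± 0.11, adjusted p = 0.000305). Its neighbour and paralogue SAMD9L rose from 11.1, 14.1 and 11.46 to 18.8, 17.5 and 19.4 CPM (0.60 ± 0.10, adjusted p = 7.1e-05). SP110 rose from 24.5, 26.5 and 24.9 to 33.3, 33.3 and 31.9 CPM (0.38 ± 0.06, adjusted p = 5.69e-05). The 4 proliferation markers were higher in the same siNTRK2 libraries (48.4 to 51.0 CPM summed, against 25.4 to 27.7 CPM with siCtrl) and CDKN1A, the CDK inhibitor p21, was lower (2087, 1955 and 2055 against 2961, 2774 and 2896 CPM). Their part in these rises and falls was not tested.

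The membrane restriction factors and the transcription factors had small log2 fold changes with siNTRK2. IFITM1, IFITM2 and IFITM3 fell by 0.31, 0.18 and 0.17 on the log2 scale. For IFITM3 the siNTRK2 and siCtrl libraries overlapped. STAT2 was at 85.7, 89.7 and 83.8 CPM with siCtrl and 91.5, 93.8 and 90.9 CPM with siNTRK2 (0.09 ± 0.05, adjusted p = 0.215). IRF9 was at 20.7, 20.9 and 19.4 and 17.1, 20.6 and 20.7 CPM (-0.06 ± 0.07, adjusted p = 0.591), and IRF7 at 4.79, 4.65 and 3.83 and 4.57, 2.56 and 3.46 CPM (-0.31 ± 0.16, adjusted p = 0.178). None of the 3 factors passed the test, but without siNTRK2 senescent replicate 1 IRF7 did (log2 fold change -0.55, adjusted p = 0.0174). IFIH1 was at 0.855, 1.84 and 1.38 CPM and 0.663, 0.867 and 0.894 CPM, with overlapping groups (-0.76 ± 0.25, adjusted p = 0.0294).

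Calls of 9 members with siNTRK2 were lost in fits that left out a single library. That of CXCL11 was lost without siCtrl senescent replicate 1, siNTRK2 senescent replicate 1 or siNTRK2 senescent replicate 3 (log2 fold change -2.51 to -2.05, adjusted p = 0.0646 to 0.0935). That of IFIT1 was lost without siCtrl senescent replicate 2 or siNTRK2 senescent replicate 1 (log2 fold change -0.35 to -0.33, adjusted p = 0.0586 to 0.0667). That of IFIH1 was lost without siCtrl senescent replicate 2, siCtrl senescent replicate 3 or siNTRK2 senescent replicate 1 (log2 fold change -0.74 to -0.47, adjusted p = 0.0805 to 0.219). That of GBP2 was lost without siCtrl senescent replicate 1, siCtrl senescent replicate 2, siNTRK2 senescent replicate 2 or siNTRK2 senescent replicate 3 (log2 fold change -0.37 to -0.24, adjusted p = 0.0574 to 0.19). That of DTX3L was lost without siCtrl senescent replicate 1, siCtrl senescent replicate 3 or siNTRK2 senescent replicate 1 (log2 fold change -0.23 to -0.17, adjusted p = 0.0574 to 0.171). That of IFITM1 was lost without siNTRK2 senescent replicate 3 (log2 fold change -0.26, adjusted p = 0.052). That of IFITM2 was lost without siCtrl senescent replicate 1, siCtrl senescent replicate 3, siNTRK2 senescent replicate 1, siNTRK2 senescent replicate 2 or siNTRK2 senescent replicate 3 (log2 fold change -0.20 to -0.14, adjusted p = 0.0551 to 0.207). That of IFITM3 was lost without siCtrl senescent replicate 1, siCtrl senescent replicate 3, siNTRK2 senescent replicate 2 or siNTRK2 senescent replicate 3 (log2 fold change -0.16 to -0.13, adjusted p = 0.094 to 0.162). That of UBE2L6 was lost without siCtrl senescent replicate 3 (log2 fold change -0.20, adjusted p = 0.0527). When only these groups were fitted, IFIH1, GBP2 and DTX3L also missed the threshold (adjusted p = 0.085, 0.0961 and 0.0675), without a filter GBP2 and DTX3L did (0.0533 and 0.0855), and with library totals IFITM2 did (0.0526). IFI27, not called here (-0.90 ± 0.33, adjusted p = 0.054), passed with a minimum of 10 counts in every library (adjusted p = 0.0331). Without siNTRK2 senescent replicate 1, calls were gained by IFI27 (-1.40, adjusted p = 0.00853), OAS1 (-2.35, adjusted p = 0.0255) and HERC5 (-1.21, adjusted p = 0.0414). OAS2 gained one without siNTRK2 senescent replicate 2 (-1.62, adjusted p = 0.0375), and HERC6 without siCtrl senescent replicate 2 (-0.62, adjusted p = 0.0411).

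**Figure D3:**
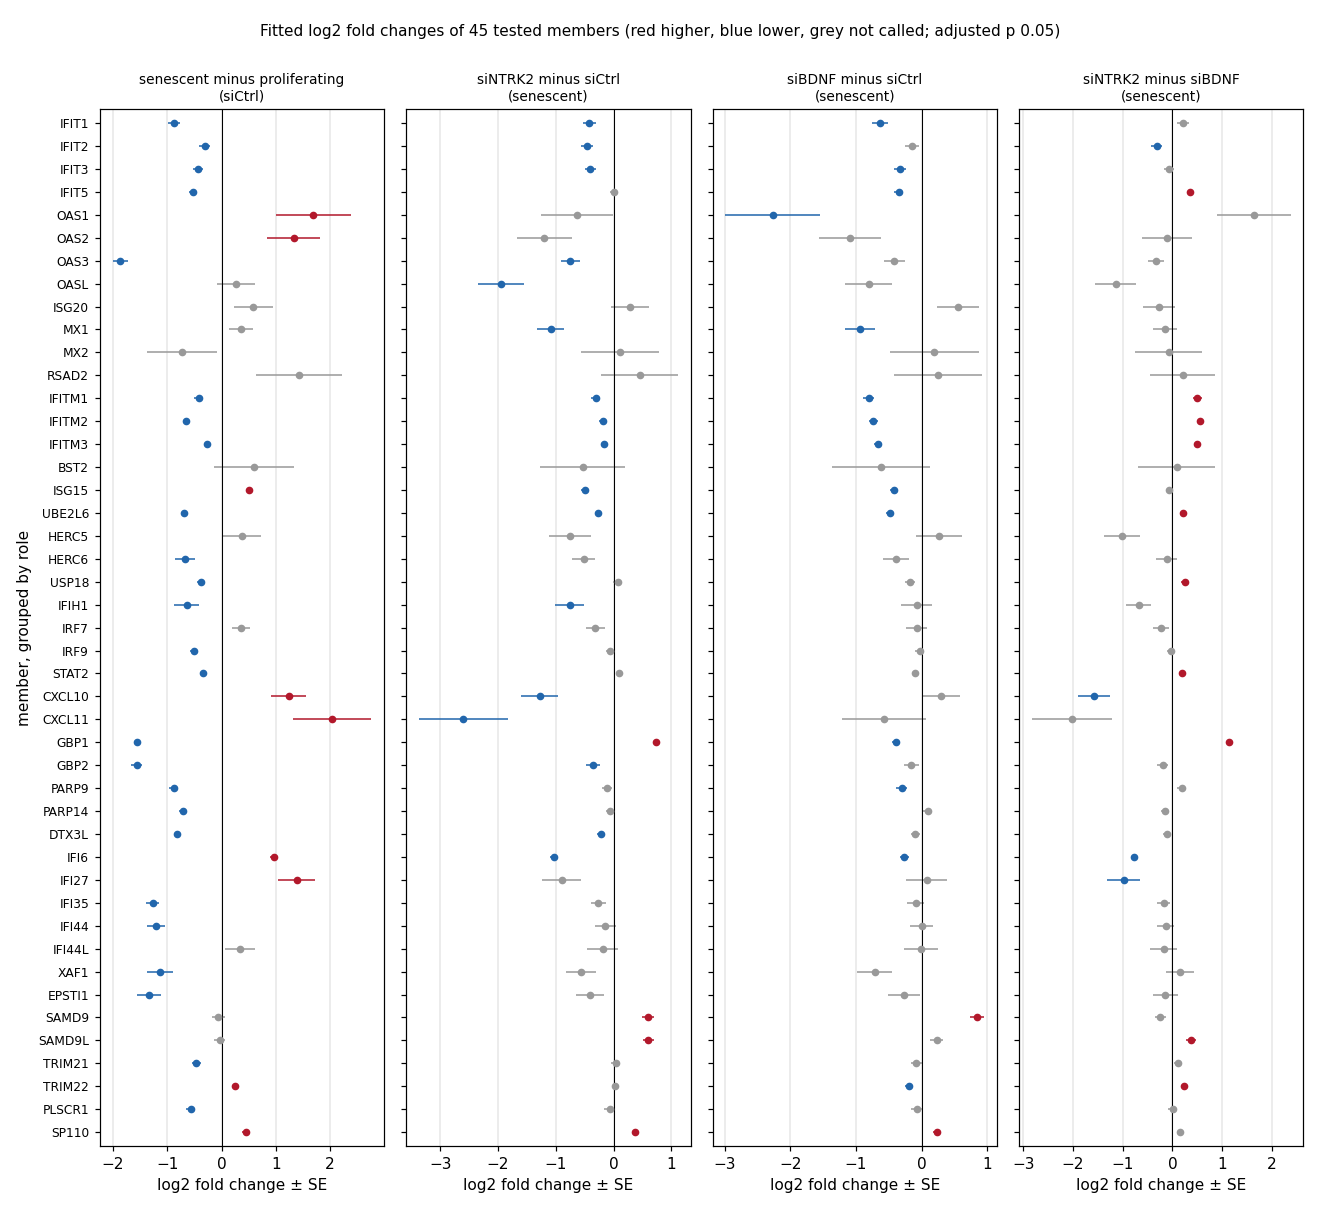
Log2 fold changes ± SE from the fit over all genes for the 45 tested members in 4 comparisons (panels with separate horizontal axes), coloured by call at an adjusted p under 0.05. In senescence 25 members were lower and 9 higher, with siNTRK2 17 and 4, with siBDNF 14 and 2, and siNTRK2 minus siBDNF gave 10 higher and 4 lower.

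The third comparison asked the same when BDNF expression was targeted. With siBDNF, 14 of 45 members fell, 2 rose and 29 did not pass the test, with a median log2 fold change of -0.18 beside 0.004 for all genes. Of all genes 20.5% were called, 10.3% higher and 10.2% lower, against 35.6% of the members called and 31.1% lower. Only OAS1 also had an absolute log2 fold change over 1 (0.609% of all genes).

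Among the membrane restriction factors, the IFITM genes, whose proteins stop viruses from fusing with host membranes, fell by similar amounts with siBDNF. IFITM1 was at 14.2, 13.3 and 14.5 CPM with siCtrl and 8.18, 7.49 and 8.38 CPM with siBDNF (-0.81 ± 0.08, adjusted p = 1.66e-07). IFITM2 went from 52.8, 46.3 and 53.1 to 28.9, 30.1 and 31.99 CPM (-0.74 ± 0.07, adjusted p = 1.21e-08). IFITM3 (chr11:319676-329475), the most abundant member, went from 174, 153 and 167 to 101, 103 and 107 CPM (-0.67 ± 0.05, adjusted p = 3.93e-09). The groups lay well apart for all 3 genes, each with every siBDNF library below every siCtrl library. The 3 genes are neighbours on chromosome 11, and the transcripts of IFITM1 and IFITM3 share stretches (5.64% and 6.24% of their 100-base stretches), so reads may be split between them. The fourth factor of the group, BST2 or tetherin, had 0.0591 to 0.397 CPM with siBDNF and did not pass the test (-0.62 ± 0.75, adjusted p = 0.652).

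The antiviral and ISG15 genes that were lower with siBDNF were mostly moderate in size. IFIT1 was at 6.59, 7.17 and 5.75 CPM with siCtrl and 4.06, 4.58 and 3.87 CPM with siBDNF (-0.64 ± 0.12, adjusted p = 0.000354). IFIT3 and IFIT5 fell by 0.33 and 0.35 on the log2 scale, and IFIT2 was at 5.77, 6.49 and 5.46 CPM beside 5.90, 6.98 and 6.73 CPM (-0.14 ± 0.10, adjusted p = 0.387). MX1 went from 2.78, 2.31 and 3.76 to 1.43, 1.65 and 1.48 CPM (-0.94 ± 0.23, adjusted p = 0.00428). OAS1 went from 0.463, 0.345 and 0.398 to 0.0611, 0.118 and 0.0582 CPM (-2.27 ± 0.72, adjusted p = 0.0262), which is 20 to 26 counts against 2 to 8. ISG15 fell from 31.6, 28.9 and 30.2 to 22.8, 21.4 and 23.4 CPM (-0.42 ± 0.07, adjusted p = 6.24e-05) and UBE2L6 from 32.98, 31.8 and 36.4 to 23.96, 22.97 and 25.4 CPM (-0.48 ± 0.06, adjusted p = 5.75e-06).

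Among the remaining members, SAMD9 and SP110 rose and GBP1 fell. SAMD9 was at 17.9, 21.3 and 19.996 CPM with siBDNF beside 10.4, 13.1 and 9.64 CPM with siCtrl (0.84 ± 0.11, adjusted p = 4.62e-06), and SP110 at 30.3, 30.1 and 28.6 beside 24.5, 26.5 and 24.9 CPM (0.23 ± 0.06, adjusted p = 0.00785). GBP1 fell from 23.6, 24.3 and 22.3 to 18.8, 17.3 and 17.6 CPM (-0.39 ± 0.07, adjusted p = 0.00012). PARP9 (-0.31 ± 0.09), IFI6 (-0.26 ± 0.07) and TRIM22 (-0.20 ± 0.06) fell by smaller amounts. IRF7, IRF9 and STAT2 were at 3.94 to 4.30, 18.9 to 20.3 and 75.6 to 86.2 CPM with siBDNF, and none passed the test (adjusted p = 0.809, 0.82 and 0.185). The chemokine CXCL10 was at 1.43, 1.92 and 1.88 CPM beside 1.44, 1.05 and 1.82 CPM (0.30 ± 0.29, adjusted p = 0.558, 95% interval -0.31 to 0.90).

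Calls of 7 members with siBDNF were lost in fits that left out a single library. That of OAS1 was lost without siBDNF senescent replicate 1, siBDNF senescent replicate 2, siBDNF senescent replicate 3, siCtrl senescent replicate 1 or siCtrl senescent replicate 3 (log2 fold change -2.71 to -2.04, adjusted p = 0.0552 to 0.12). That of MX1 was lost without siCtrl senescent replicate 3 (log2 fold change -0.73, adjusted p = 0.0509). That of IFIT3 was lost without siBDNF senescent replicate 1, siBDNF senescent replicate 3 or siCtrl senescent replicate 2 (log2 fold change -0.32 to -0.24, adjusted p = 0.0507 to 0.101). That of IFI6 was lost without siBDNF senescent replicate 2 (log2 fold change -0.24, adjusted p = 0.0507). That of PARP9 was lost without siBDNF senescent replicate 2 or siCtrl senescent replicate 3 (log2 fold change -0.26 to -0.25, adjusted p = 0.0911 to 0.0922). That of TRIM22 was lost without siBDNF senescent replicate 2, siBDNF senescent replicate 3, siCtrl senescent replicate 2 or siCtrl senescent replicate 3 (log2 fold change -0.20 to -0.14, adjusted p = 0.0573 to 0.123). That of SP110 was lost without siCtrl senescent replicate 1 (log2 fold change 0.21, adjusted p = 0.05). With library totals in place of TMM factors, TRIM22 was not called (adjusted p = 0.127), and XAF1, not called here (-0.72 ± 0.27, adjusted p = 0.0617), passed with a replicate block (adjusted p = 0.0476). XAF1 also passed without siBDNF senescent replicate 3 (-0.94, adjusted p = 0.0429), and SAMD9L without siCtrl senescent replicate 2 (0.34, adjusted p = 0.0173).

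The comparisons of siNTRK2 and of siBDNF with siCtrl share the same 3 control libraries, which are also the senescent libraries of the first comparison, so the values are only set side by side. For ISG15 the log2 fold change was -0.49 ± 0.07 with siNTRK2 and -0.42 ± 0.07 with siBDNF. For IFIT1 it was -0.42 ± 0.12 and -0.64 ± 0.12, for MX1 -1.09 ± 0.23 and -0.94 ± 0.23, and for UBE2L6 -0.26 ± 0.06 and -0.48 ± 0.06. SAMD9 was higher with each (0.60 ± 0.11 and 0.84 ± 0.11), as was SP110 (0.38 ± 0.06 and 0.23 ± 0.06). GBP1 was the 1 member called in opposite directions, 0.74 ± 0.06 with siNTRK2 and -0.39 ± 0.07 with siBDNF.

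The 2 siRNAs were then compared directly, which uses no siCtrl library in the difference. Between siNTRK2 and siBDNF, 10 of 45 members were higher with siNTRK2 and 4 were lower, where 8.84% and 7.86% of all genes were (16.7% in either direction). With an absolute log2 fold change over 1 only GBP1 and CXCL10 were called, against 1.16% of all genes. Among members higher with siNTRK2, GBP1 showed the largest difference, 35.4, 42.4 and 39.5 CPM with siNTRK2 and 18.8, 17.3 and 17.6 CPM with siBDNF (1.13 ± 0.07, adjusted p = 3e-12). The IFITM genes followed with closely similar values: 0.50 ± 0.09 for IFITM1, 0.55 ± 0.07 for IFITM2 and 0.50 ± 0.05 for IFITM3. IFIT5 was at 19.5, 20.7 and 20.4 CPM with siNTRK2 and 14.99, 16.6 and 15.4 CPM with siBDNF (0.36 ± 0.07, adjusted p = 0.00101). SAMD9L was at 18.8, 17.5 and 19.4 and 13.1, 15.4 and 14.1 CPM (0.38 ± 0.10, adjusted p = 0.00827), whereas SAMD9 was at 16.6, 14.96 and 18.6 and 17.9, 21.3 and 19.996 CPM (-0.25 ± 0.11, adjusted p = 0.124), a difference that passed without a filter (adjusted p = 0.0401) and with only these groups (adjusted p = 0.0464).

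In the opposite direction, IFI6 was lower with siNTRK2 (12.6, 12.5 and 14.1 CPM) than with siBDNF (21.3, 21.7 and 23.8 CPM), at -0.77 ± 0.07, adjusted p = 1.61e-08. CXCL10 was at 0.776, 0.343 and 0.633 CPM with siNTRK2 and 1.43, 1.92 and 1.88 CPM with siBDNF (-1.57 ± 0.32, adjusted p = 0.000961). IFI27 was at 0.760, 0.423 and 0.279 CPM and 1.10, 1.03 and 0.815 CPM (-0.98 ± 0.33, adjusted p = 0.0439), and IFIT2 at 4.75, 4.50 and 4.99 and 5.77, 6.49 and 5.46 CPM (-0.32 ± 0.11, adjusted p = 0.0434). The remaining members called were higher with siNTRK2 by little: UBE2L6 (26.7, 29.2 and 28.3 against 23.96, 22.97 and 25.4 CPM), USP18 (10.9, 11.6 and 10.47 against 9.10, 9.09 and 9.52 CPM), TRIM22 (45.2, 48.5 and 47.8 against 41.8, 38.8 and 40.3 CPM) and STAT2 (91.5, 93.8 and 90.9 against 80.1, 86.2 and 75.6 CPM), with log2 fold changes of 0.22 ± 0.06, 0.25 ± 0.08, 0.23 ± 0.06 and 0.19 ± 0.05. ISG15 and MX1 did not pass this test; the 95% intervals of their log2 difference were -0.21 to 0.07 and -0.65 to 0.36. OAS1 had a log2 difference of 1.63 ± 0.74, adjusted p = 0.143 and one of -0.08 without siNTRK2 senescent replicate 1, the library that held 37 of its counts.

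In the direct comparison the calls of 6 members were lost in fits that left out a single library. Without siBDNF senescent replicate 2 the number of members called was 9 instead of 14. The call of IFIT2 was lost without siBDNF senescent replicate 1, siBDNF senescent replicate 2, siNTRK2 senescent replicate 1, siNTRK2 senescent replicate 2 or siNTRK2 senescent replicate 3 (log2 fold change -0.35 to -0.23, adjusted p = 0.0511 to 0.253). That of USP18 was lost without siBDNF senescent replicate 1, siBDNF senescent replicate 2, siBDNF senescent replicate 3, siNTRK2 senescent replicate 1 or siNTRK2 senescent replicate 2 (log2 fold change 0.22 to 0.27, adjusted p = 0.072 to 0.117). That of IFI27 was lost without siBDNF senescent replicate 1, siBDNF senescent replicate 2, siBDNF senescent replicate 3, siNTRK2 senescent replicate 2 or siNTRK2 senescent replicate 3 (log2 fold change -1.10 to -0.70, adjusted p = 0.0641 to 0.183), and its log2 fold change was -1.47 without siNTRK2 senescent replicate 1. That of UBE2L6 was lost without siBDNF senescent replicate 1, siBDNF senescent replicate 2, siNTRK2 senescent replicate 2 or siNTRK2 senescent replicate 3 (log2 fold change 0.19 to 0.22, adjusted p = 0.0517 to 0.101). That of STAT2 was lost without siBDNF senescent replicate 3 (log2 fold change 0.15, adjusted p = 0.103). That of TRIM22 was lost without siBDNF senescent replicate 2 (log2 fold change 0.21, adjusted p = 0.0505). IFIT2 was also lost without a filter (adjusted p = 0.0873), with only these groups (0.0649) and with a replicate block (0.0524), IFI27 with only these groups (0.0628), USP18 without a filter (0.0837), and USP18 and STAT2 with library totals (0.0786 and 0.0501). HERC5 (0.533, 0.202 and 0.317 against 0.672, 0.635 and 0.859 CPM) and OASL (0.129, 0.161 and 0.335 against 0.458, 0.443 and 0.480 CPM) missed the threshold (-1.02 ± 0.36, adjusted p = 0.0554 and -1.14 ± 0.42, adjusted p = 0.0623), but HERC5 passed with library totals (adjusted p = 0.0471) or a minimum of 10 counts in every library (0.0257) and OASL with a replicate block (0.0473). HERC5 passed as well without siNTRK2 senescent replicate 1 (-1.47, adjusted p = 0.0163) and OASL without siNTRK2 senescent replicate 3 (-1.66, adjusted p = 0.0179). Without siNTRK2 senescent replicate 2, OAS1 (2.11, adjusted p = 0.0400) and CXCL11 (-3.02, adjusted p = 0.0493) passed.

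Genes of the pathway outside the set were read from a list of 66, of which 65 were found in the files and 52 were tested. Interferon transcripts themselves had few counts or none. IFNA2, IFNK, IFNL2 and IFNL3 had no counts in any library, IFNG and IFNL1 had 1 count in a single siBDNF library, and IFNB1 had 1 count in each of 2 libraries with siCtrl. IFNA1 had 0 to 2 counts in proliferating, 0 to 6 in siCtrl senescent, 0 to 3 in siNTRK2 and 1 to 13 in siBDNF libraries, and its exons overlap those of the non-coding gene MIR31HG on the opposite strand, which had 7296 counts in all libraries together. For a gene with no count, 3 counts per library (0.0427 to 0.0916 CPM) is the level that could have been missed. IFNE, an interferon known from epithelium, was the only ligand tested, at 0.0179, 0.114 and 0.0271 CPM in proliferating and 0.338, 0.172 and 0.208 CPM in senescent cells (1.98 ± 0.66, adjusted p = 0.012). That is 1, 8 and 1 counts against 19, 10 and 12. IFNE overlaps MIR31HG on the same strand, outside the MIR31HG exons, so reads from unspliced MIR31HG RNA could be among its counts, which was not tested.

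Both chains of the type I receptor were detected in every group. IFNAR1 was at 48.8, 57.1 and 51.4 CPM in siCtrl senescent cells and 68.2, 72.8 and 70.99 CPM with siBDNF (0.43 ± 0.08, adjusted p = 0.000267), and IFNAR2 at 12.1, 11.7 and 10.7 and 13.6, 13.7 and 15.2 CPM (0.31 ± 0.09, adjusted p = 0.0171). With siNTRK2 neither passed the test (0.15 ± 0.08, adjusted p = 0.19 and 0.18 ± 0.09, adjusted p = 0.185). IFNAR2 shares same-strand exons with the read-through gene IFNAR2-IL10RB, so its level is uncertain. Receptor subunit IFNLR1 had no counts in proliferating cells and 0.143, 0.276 and 0.225 CPM in senescent cells, at least 3.62-fold higher.

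The signal transducers were abundant. JAK1 fell in senescence (-0.29 ± 0.04), and STAT3 rose from 127, 128 and 130 to 180, 183 and 183 CPM (0.51 ± 0.04, adjusted p = 7.6e-11). SOCS1, which inhibits JAK kinases, went from 18.2, 17.1 and 20.8 CPM to 2.28, 2.95 and 2.72 CPM, the largest fall of the 52 genes (-2.81 ± 0.17, adjusted p = 3.48e-13). UBA7, the enzyme that activates ISG15, fell from 25.4, 25.1 and 27.1 to 7.001, 8.18 and 7.50 CPM (-1.77 ± 0.08, adjusted p = 2.71e-15), and also fell with siBDNF (-0.51 ± 0.09, adjusted p = 0.000246).

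DNA and RNA sensors differed among themselves. The cGAS gene, listed as MB21D1, fell in senescence from 3.52, 4.34 and 3.03 to 1.66, 1.43 and 2.13 CPM (-1.08 ± 0.18, adjusted p = 1.03e-05). STING, listed as TMEM173, was at 79.5, 75.3 and 86.4 and 79.9, 75.99 and 83.1 CPM (-0.01 ± 0.05, adjusted p = 0.868), and fell with siBDNF to 60.9, 58.1 and 60.3 CPM (-0.41 ± 0.05, adjusted p = 4.39e-06) and with siNTRK2 to 71.6, 67.4 and 71.4 CPM (-0.18 ± 0.05, adjusted p = 0.0152). IFI16, a nuclear DNA sensor, fell in senescence (-0.67 ± 0.05) and rose with siNTRK2 (0.29 ± 0.05) and siBDNF (0.15 ± 0.05). RIG-I, listed as DDX58, rose in all 3 (0.32 ± 0.07, 0.26 ± 0.07 and 0.23 ± 0.07).

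In counts, 38 of the 52 pathway genes were called in senescence (14 higher, 24 lower), 14 with siNTRK2 (7 higher, 7 lower), 11 with siBDNF (8 higher, 3 lower) and 9 between the siRNAs (5 higher, 4 lower with siNTRK2). These are 73.1%, 26.9%, 21.2% and 17.3% of the genes tested, beside 58.1%, 21.1%, 20.5% and 16.7% of all genes, so the shares with siBDNF and between the siRNAs were near the background. With library totals in place of TMM factors, 19 were called with siBDNF, 16 higher and 3 lower, and 11 between the siRNAs, 4 higher and 7 lower. With siNTRK2, 8 and 7 were called without siCtrl senescent replicates 1 and 3, and with siBDNF 7 were called without siCtrl senescent replicate 3. GBP3, a relative of GBP1, rose with siNTRK2 (57.2, 62.1 and 55.9 to 72.1, 81.4 and 74.9 CPM, 0.38 ± 0.06, adjusted p = 1.64e-05) and was at 55.6, 59.7 and 55.2 CPM with siBDNF (-0.04 ± 0.06, adjusted p = 0.714). HELZ2, an interferon-induced helicase, rose with siBDNF (14.96, 16.5 and 15.3 to 21.003, 21.997 and 20.7 CPM, 0.45 ± 0.07, adjusted p = 4.3e-05).

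**Figure D4:**
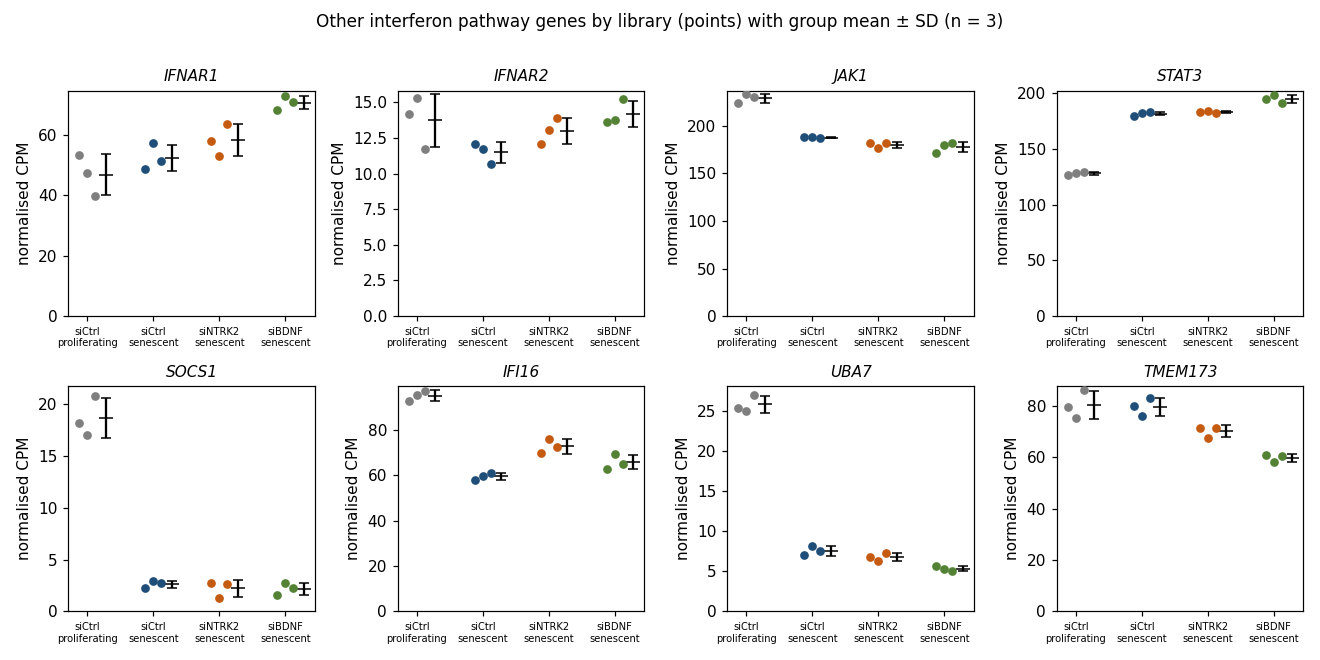
Normalised CPM (linear axis from 0) of 8 pathway genes outside the set in each library, shown as points in 4 groups, with the group mean ± SD (n = 3) as a black bar. SOCS1 and UBA7 were lower in all senescent groups than in proliferating cells, and TMEM173 was lowest with siBDNF.

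ISRE matches were found in members of each direction. Of the members with a promoter window, 15 of 21 that fell in senescence and 4 of 7 that rose held one, as did 11 of 13 that fell and 2 of 4 that rose with siNTRK2, and 10 of 12 that fell and 1 of 2 that rose with siBDNF. Among members not called these numbers were 7 of 8, 13 of 19 and 15 of 22.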

How the data were processed

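RNA from WI-38 cells was made into stranded, poly(A)-selected libraries. Per the labels and the methods of the study, the authors trimmed adapters with Cutadapt, aligned paired reads to hg19 with STAR (2.4.0j), counted them per Ensembl gene with featureCounts (1.6.4) and deposited raw counts, 1 file per library. The treatment of strand and of multi-mapped reads is not given in the sources used here. Symbols, coordinates and exon lengths came from a GRCh37 annotation, and promoter windows from RefSeq (GRCh38.p14).

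Counts were analysed in R 4.3.3 with edgeR 4.0.16: TMM factors, filterByExpr (21518 genes), and a quasi-likelihood fit with 1 term per group over all 12 libraries. The Benjamini-Hochberg adjustment was made over all of these genes, with a threshold of 0.05. The alternatives, among them DESeq2 1.42.0, are given beside calls that changed under them and in the closing section. Where DESeq2 gave an adjusted p, the outcome was the same for 162 pairs of a member and a comparison. In DESeq2, 1 call was lost, that of OAS1 in senescence. The models were tested on simulated data.

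The members, lists and tests were chosen with earlier results of these data known. All 46 members could be named. A pathway gene and a cell type marker are not reported here. Per library values were planned for up to 5 largest called increases and decreases per comparison. They were also planned for IRF7, IRF9 and STAT2, and for members that differed between the siRNAs. IFITM1, IFITM2 and IFITM3 with siNTRK2, and IRF7 and IRF9 with siBDNF, were given without them. Other genes given by library (such as IFIT1, IFIT2 and the pathway genes) were picked with their values in view.

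A floor of 3 counts covers counting error only, and without molecular identifiers reads do not count separate molecules. Standard errors and intervals come from the quasi-likelihood fit and include the spread between the libraries of a group, whose source is not given library by library.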

Additional observations from a re-analysis of the deposited data

Results flagged for a closer look

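GBP1 is the 1 result singled out for a closer look. It was the 1 member called in opposite directions with the siRNAs, each against siCtrl. It was also among the 14 members called in the direct comparison. GBP1 was picked by these calls, so the values below describe the choice and are not separate evidence for it. In senescent cells its level was 35.4, 42.4 and 39.5 CPM with siNTRK2 and 18.8, 17.3 and 17.6 CPM with siBDNF, a log2 difference of 1.1323 (edgeR, adjusted p = 3e-12), with each of the 3 siNTRK2 libraries above and each of the 3 siBDNF libraries below the siCtrl range of 22.3 to 24.3 CPM. Groups of 3 libraries were not examined for single outlying values.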

How the results depend on the processing

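The direction of the medians held under every alternative: leaving out 1 library gave -0.39 to -0.36 in senescence, -0.35 to -0.24 with siNTRK2, -0.25 to -0.16 with siBDNF and -0.08 to -0.04 between the siRNAs. Adding an absolute log2 fold change over 1 left 12, 5, 1 and 2 members in these comparisons and 11, 0, 0 and 0 of the other pathway genes; this condition is stricter by construction. With library totals 19 other pathway genes were called with siBDNF. Leaving out 1 library gave 29 to 34, 16 to 20, 12 to 15 and 9 to 13 members called, and 7 to 15 other pathway genes called with siNTRK2 and with siBDNF alike. Replicate numbers did not pair the libraries: deviations of same-numbered libraries had a mean correlation of 0.00184 (-0.0396 to 0.0270), none of 18 over 0.1, and 4 of 12 libraries correlated best with their own number. With the replicate block 34, 21, 17 and 14 members were called, beside 34, 21, 16 and 14. In senescence the equal number hides an exchange, in which OAS1 was lost (adjusted p = 0.0555) and IRF7 gained (0.0456). In the alternatives that keep all libraries, signs turned only for members that were not called, and the cause was not tested. With the replicate block these were MX2 with siNTRK2 (-0.0146) and BST2 between the siRNAs (-0.14). With library totals they were IRF9 (0.0230), IFI44 (0.0536) and IFI44L (0.0450) with siBDNF and PLSCR1 between the siRNAs (-0.0356). Without a filter they were IFI44 (0.0071) and IFI44L (0.0009) with siBDNF, and with at least 10 counts in every library IFI44 with siBDNF (0.0066) and PLSCR1 between the siRNAs (-0.0061). The sign of uncalled log2 fold changes turned when single libraries were left out. The ranges were in senescence MX2 -1.14 to 0.0777, SAMD9 -0.215 to 0.0221 and SAMD9L -0.165 to 0.035. They were with siNTRK2 IFIT5 -0.0306 to 0.0604, MX2 -0.245 to 0.527, RSAD2 -0.068 to 1.11, BST2 -1.38 to 0.0411, IRF9 -0.113 to 0.0215, PARP14 -0.115 to 0.0001, IFI44L -0.325 to 0.0617, TRIM21 -0.0121 to 0.0826, TRIM22 -0.0145 to 0.091 and PLSCR1 -0.104 to 0.0172. They were with siBDNF MX2 -0.157 to 0.597, RSAD2 -0.28 to 0.904, IFIH1 -0.322 to 0.209, IFI27 -0.0285 to 0.201, IFI35 -0.252 to 0.0411, IFI44 -0.109 to 0.102, IFI44L -0.293 to 0.18, EPSTI1 -0.667 to 0.0249 and PLSCR1 -0.114 to 0.0135. They were between the siRNAs OAS1 -0.0828 to 2.11, OAS2 -0.54 to 0.395, MX1 -0.405 to 0.105, MX2 -0.436 to 0.339, RSAD2 -0.132 to 0.412, BST2 -0.76 to 0.943, HERC6 -0.274 to 0.0296, IRF9 -0.0772 to 0.0566, IFI44L -0.356 to 0.106, EPSTI1 -0.427 to 0.254 and PLSCR1 -0.0211 to 0.0195. Members under 1 CPM had few counts, and their fold changes are the least precise. Leaving out a library leaves 2 in its group, and no alternative moved the median of all tested genes by over 0.1 on the log2 scale through scaling.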
